A study of Mus musculus with 4 samples.

Results

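The insulin-like growth factor (IGF) axis was read through 10 genes in mouse embryonic fibroblasts (MEFs), the connective-tissue cells that grow out of dissociated embryos. The genes were chosen by name and comprised the ligands Igf1 and Igf2, the receptors Igf1r and Igf2r, and the binding proteins Igfbp2, Igfbp3, Igfbp4, Igfbp5, Igfbp6 and Igfbp7. Igfbp2 was among them because it was already known from these arrays to be lower in both knockouts. They were 10 of the 27745 gene names on the array and were read by 20 of its 41174 gene probes. Every probe of every gene is accounted for below. Of the 10 genes, 4 had a single probe, and 1 probe each of Igf1 and Igf2 was printed 10 times on every array.

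Cyclin G1 knockout MEFs (CycG1-/-, G1KO) were compared with a wild-type (WT) CycG1+/+ culture, and cyclin G2 knockout MEFs (CycG2-/-, G2KO) with a CycG2+/+ culture of their own. In G1KO mice a PGK-neo cassette stood in place of all coding exons of Ccng1, whereas the deleted portion of Ccng2 is not given in the sources used here. All MEFs came from mid-gestation embryos of strain C57BL/6J per the strain labels, were kept in DMEM with serum and were harvested untreated in logarithmic growth. The source label of the G2KO pair gives the strain name differently. Each knockout RNA was hybridised together with its WT RNA on 2 Agilent arrays with the dyes Cy5 and Cy3 exchanged. Each genotype was therefore 1 culture, or 1 replicate, and ± gives the SD of both array readings, a technical spread. Differences between cultures could thus not be checked on a replicate, and no p-value could be calculated.

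IGF1 and IGF2 are secreted peptides related to insulin that drive growth and survival through the receptor tyrosine kinase IGF1R. IGF2R, which is also the cation-independent mannose 6-phosphate receptor, takes up IGF2 and delivers it to lysosomes without kinase signalling. The binding proteins hold most of the ligand outside cells, and can withhold it from IGF1R or present it there. IGF2 is a major growth factor of the embryo. In the mouse, Igf2 is transcribed from the paternal allele and Igf2r mainly from the maternal allele.

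A probe was tested where it was well above background on both arrays in at least 1 genotype of the pair, and called where its log2 ratio of knockout over WT reached 1 in size (2-fold) in the same direction on each array. The targeted genes were examined first. Ccng1 had a log2 ratio of -6.67 ± 0.13 in G1KO. In the other pair the ratio of Ccng2 was 0.09 ± 0.27, so that its probe shows no loss. The knockout RNA of the G2KO pair is therefore named by its label (G2KO-labelled RNA). The authors report genotyping their G2KO MEFs by RT-PCR with CycG2 primers, and whether the array probe lies in the deleted portion was not tested. Ccng1 was higher in G2KO-labelled RNA, at a log2 ratio of 2.67 ± 0.03. Xist, transcribed from an inactive X chromosome, was higher in both knockout RNAs, at log2 ratios of 7.54 ± 0.43 and 7.24 ± 0.46. The Y-linked Eif2s3y was well above background in WT alone. Its level was at least 82.3-fold lower in G1KO. It was at least 51.2-fold lower in G2KO-labelled RNA. The authors attribute the higher Xist to a female origin of the G1KO and G2KO MEFs, whereas both WT cultures expressed Eif2s3y. In every ratio below, also those lower in both knockouts, genotype and the sex of the culture cannot be told apart. Between 25366 and 27757 of 43379 gene spots per channel and array were well above background, and 0 gene spots were saturated.

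In the G1KO comparison, 17 of the 20 IGF axis probes were tested and 4 were called. Across the array 5.79% of 25540 tested probes were called, 1.99% higher and 3.80% lower. Igf2r was the only member called higher, whereas Igfbp2 and both probes of Igfbp4 were called lower, and 7 of the 10 genes had no called probe. In the G2KO comparison, all 20 probes were tested and 11 were called, beside 6.37% of 25431 probes across the array, 2.31% higher and 4.06% lower. Igfbp3 at 2 probes and Igfbp5 at 1 probe were higher, and Igf2, Igf2r, Igfbp2, Igfbp4, Igfbp6 and Igfbp7 were lower, which left Igf1 and Igf1r as the 2 genes without a called probe. The median size of the log2 ratio, regardless of direction, was 0.33 over the 17 probes in the G1KO pair and 1.40 over the 20 probes in the other. Over all tested probes it was 0.21 and 0.24. Since the genes were chosen with these ratios known, the counts are a description of the members.

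**Figure D1:**
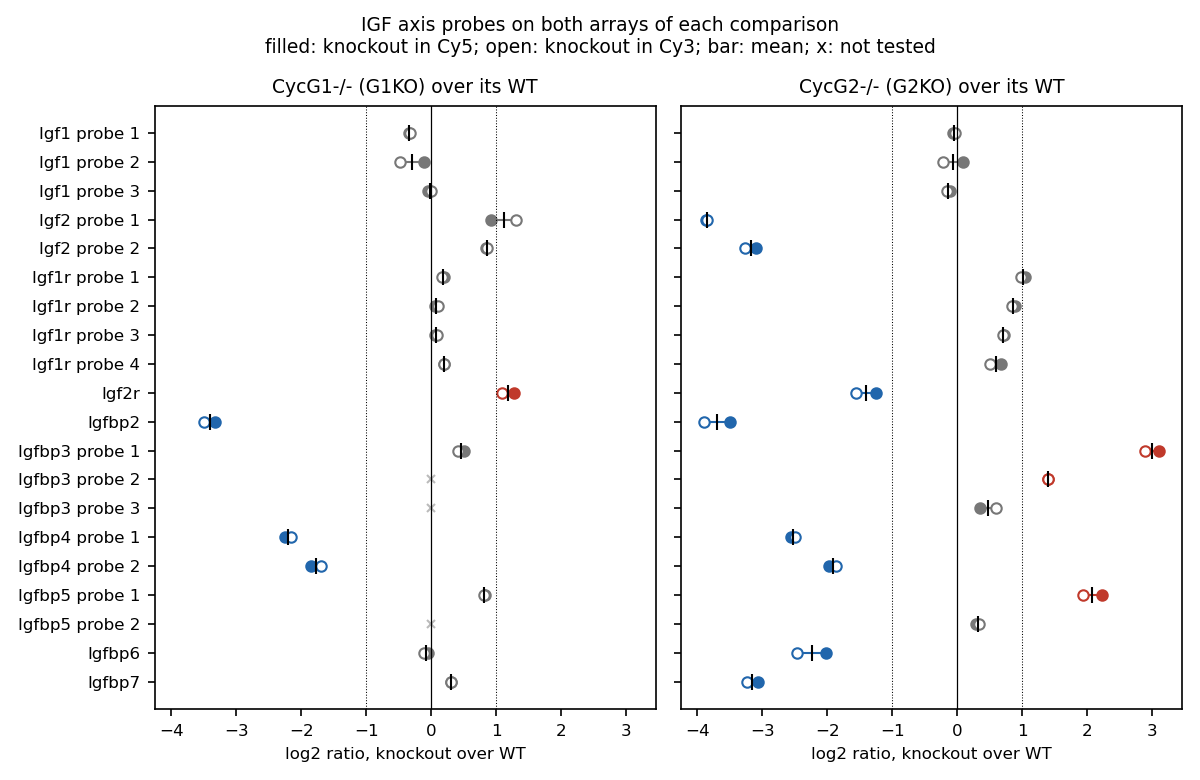
Log2 ratio of knockout over WT for each of the 20 IGF axis probes, in the G1KO pair (left) and the G2KO pair (right). Filled points are the array with knockout RNA in Cy5, open points the array with it in Cy3, bars their mean, dotted lines the 2-fold threshold, red and blue probes called higher and lower, and crosses probes that were not tested. Igfbp2 and Igfbp4 lie left of the threshold in both panels, and 4 probes are called on the left against 11 on the right.

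The ligands differed from each other. Igf1 lay within 2-fold of its WT in both pairs. At the probe printed 10 times (chromosome 10, 87360570 to 87360629 on build mm8), its log2 ratios were -0.34 and -0.33 on the arrays of the G1KO pair and -0.07 and -0.04 on those of the other. The lowest and highest of the 10 spots on an array were -0.39 and -0.28 in G1KO with knockout RNA in Cy5, so that the repeated spots lay close together. The remaining probes gave means of -0.30 ± 0.25 and -0.02 ± 0.04 in G1KO, and -0.07 ± 0.22 and -0.14 ± 0.03 in G2KO-labelled RNA, none of which was called.

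Igf2, in contrast, lay above its WT in one pair and far below it in the other. Its brighter probe (chromosome 7, 142460185 to 142460245) had raw brightness in Cy5 of 3936 in G1KO and 1784 in its WT, and of 737 in G2KO-labelled RNA and 9158 in its WT. G1KO was thus brighter than its WT, and G2KO-labelled RNA was the dimmest of the 4 cultures. The log2 ratios were 0.92 and 1.31 in G1KO, of which the first missed the threshold (1.02 and 1.45 with the scanner's log ratio, where the probe was called), and -3.86 and -3.85 in G2KO-labelled RNA, a 14.5-fold lower level. The dimmer probe (142460600 to 142460659) gave 0.86 ± 0.01 and -3.18 ± 0.11. In the G2KO pair, 0.17% of all tested probes had a ratio as low as the brighter probe.

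The receptors also differed. Igf1r, the signalling receptor, was read by 4 probes on chromosome 7, and 0 were called in either pair. Its log2 ratios in G1KO lay between 0.07 and 0.19. In G2KO-labelled RNA the means were 1.01, 0.86, 0.71 and 0.59 from the brightest to the dimmest probe. The brightest (68105625 to 68105684) was just outside the threshold, at 1.04 and 0.97 on the arrays. With the scanner's log ratio the probes lay closer together in G2KO-labelled RNA, with means of 1.04, 0.93, 0.89 and 0.83. Igf2r had 1 probe, on chromosome 17, and was the single member called in opposite directions. Its log2 ratios were 1.28 and 1.09 in G1KO and -1.25 and -1.56 in G2KO-labelled RNA, or 2.27-fold higher and 2.64-fold lower on the mean of the arrays. Both calls rest on the loess step, since with median centring alone the arrays gave 2.09 and 0.34 in G1KO and -0.35 and -2.22 in G2KO-labelled RNA. Across the array 0.915% of 24150 probes tested in both pairs were called in opposite directions.

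Igfbp2 and Igfbp4 were the members called lower in both knockouts, a pattern shown by 0.547% of the 24150 probes. Igfbp2 binds both IGFs, prefers IGF2 and carries an integrin-binding motif. In Cy5 its raw brightness was 1034 in G1KO against 10537 in WT, and 2118 in G2KO-labelled RNA against 23133 in WT. Both knockout RNAs were thus dimmer than either WT. Its log2 ratios were -3.33 and -3.49 in G1KO (10.6-fold lower) and -3.49 and -3.90 in G2KO-labelled RNA (13.0-fold lower). Its probe covered 72785310 to 72785369 of chromosome 1, plus strand.

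Igfbp4 inhibits IGF action in many cells and is cleaved by the protease PAPP-A. Its brighter probe (chromosome 11, 98868110 to 98868169) had a raw brightness in Cy5 of 690 in G1KO against 2836 in WT, and of 194 in G2KO-labelled RNA against 1316 in WT. The log2 ratios were -2.25 and -2.16 in G1KO and -2.56 and -2.51 in G2KO-labelled RNA. The second probe, at 98864367 to 98864426, gave -1.77 ± 0.11 and -1.92 ± 0.07. The probes of Igfbp4 therefore had the same direction on every array, with the smaller ratio at the dimmer probe in each pair. With the scanner's log ratio both were larger in size, at -2.31 and -2.01 in G1KO and -3.09 and -2.60 in G2KO-labelled RNA.

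The stretches of 250 bases before the start of these genes are shown because both were lower in both pairs (RefSeq, GRCm38.p6, plus strand, chr1:72824230-72824479 for Igfbp2 and chr11:99040994-99041243 for Igfbp4). Of the 2 starts listed for Igfbp2 the upstream one is printed. Capitals mark 3 motifs, each searched on both strands. The GC box was sought as the letters GGGCGG. The TATA box of the core promoter was sought as the letters TATAAA. The E-box, a site of helix-loop-helix factors, was sought as the letters CACGTG. In the printed stretches no motif overlapped another.
Igfbp2: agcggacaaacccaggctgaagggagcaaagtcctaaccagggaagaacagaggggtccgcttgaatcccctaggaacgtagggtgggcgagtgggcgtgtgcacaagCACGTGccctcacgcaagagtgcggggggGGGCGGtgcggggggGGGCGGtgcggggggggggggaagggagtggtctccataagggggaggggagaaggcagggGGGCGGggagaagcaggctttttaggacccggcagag
Igfbp4: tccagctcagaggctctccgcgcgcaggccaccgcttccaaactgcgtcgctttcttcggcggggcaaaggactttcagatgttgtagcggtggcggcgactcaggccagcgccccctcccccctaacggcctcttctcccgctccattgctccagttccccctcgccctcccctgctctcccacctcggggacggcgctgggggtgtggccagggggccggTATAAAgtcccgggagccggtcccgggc
The stretch printed for Igfbp2 held 3 GC boxes and 1 E-box and no TATA box. The stretch before its other start (72825137 to 72825386) held 0 of the 3 motifs. That before Igfbp4 held 1 TATA box and neither of the others. Of 32817 such stretches in the table, 32.7% held the GC box, 12.4% the TATA box and 6.02% the E-box. The matches are a description of letters, and these genes shared none of the motifs.

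Igfbp3 and Igfbp5 were called higher in G2KO-labelled RNA and not in G1KO, although for Igfbp5 the latter depended on the handling of background. IGFBP3 is the main carrier of IGFs in the circulation, and IGFBP5 binds extracellular matrix. Igfbp3 was read best by the probe at 7106594 to 7106653 on chromosome 11. Its raw brightness in Cy5 was 2595 in G2KO-labelled RNA against 313 in WT, and 243 in G1KO against 146 in WT. G2KO-labelled RNA was thus the brightest of the 4 cultures. The log2 ratios were 3.11 and 2.88 there (7.97-fold higher), and 0.51 and 0.41 in G1KO. The 2 other probes were dim. At 1 of them WT was not well above background, and G2KO-labelled RNA was at least 2.52-fold higher on the mean of the arrays. The other gave 0.47 ± 0.18, with WT well above background on 1 of 2 arrays, and was called with the scanner's log ratio. Neither was tested in the G1KO pair, where they were not well above background in either genotype.

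Igfbp5 was read best by the probe at 72791462 to 72791521 on chromosome 1. In G2KO-labelled RNA its log2 ratios were 2.23 and 1.93, or 4.22-fold higher. In the G1KO pair WT was not well above background, and G1KO was at least 1.76-fold higher, with measured log2 ratios of 0.83 and 0.81 that missed the threshold. This missed call rests on the handling of background. Without background subtraction the ratios against this dim WT were 1.13 and 1.09 and the probe was called. It was also called with plain subtraction, with a normexp offset of 16 and with the scanner's own log ratio. The second probe was dim. Its WT was not well above background in the G2KO pair, G2KO-labelled RNA was at least 1.24-fold higher, and the probe was not called, except with the scanner's log ratio and its copy in the series table. It was not tested in G1KO.

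Igfbp5 is the direct neighbour of Igfbp2, with 0 genes starting between them in the RefSeq table. Their probes lay on opposite strands, 6092 bases apart on mm8. In G2KO-labelled RNA the neighbours thus moved in opposite directions, with Igfbp2 lower and Igfbp5 higher. The 250 bases before the starts of the genes that were higher are shown in the same way (GRCm38.p6, minus strand, chr11:7213924-7214173 for Igfbp3 and chr1:72874866-72875115 for Igfbp5).
Igfbp3: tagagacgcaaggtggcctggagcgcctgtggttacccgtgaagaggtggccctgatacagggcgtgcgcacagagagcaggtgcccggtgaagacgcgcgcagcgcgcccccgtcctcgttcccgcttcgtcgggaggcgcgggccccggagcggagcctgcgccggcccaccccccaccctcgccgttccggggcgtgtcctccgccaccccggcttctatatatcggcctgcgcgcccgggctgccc
Igfbp5: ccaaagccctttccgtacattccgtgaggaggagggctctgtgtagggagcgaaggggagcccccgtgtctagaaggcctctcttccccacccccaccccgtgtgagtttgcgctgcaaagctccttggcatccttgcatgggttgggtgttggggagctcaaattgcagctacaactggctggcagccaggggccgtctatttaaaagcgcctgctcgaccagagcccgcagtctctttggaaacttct
Neither stretch held any of the 3 motifs in exactly the letters sought, and no letters are in capitals. Near matches, such as other AT-rich forms of the TATA box, were not sought. Their GC contents were 73.2% and 58.8%, beside 67.2% before Igfbp2 and 69.2% before Igfbp4.

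Igfbp6 and Igfbp7 were called lower in G2KO-labelled RNA and not in G1KO. IGFBP6 prefers IGF2 over IGF1, and IGFBP7 is a secreted relative that binds IGFs weakly and is found in matrix and vessel walls. Igfbp6 (chromosome 15, 101977366 to 101977426) had log2 ratios of -2.02 and -2.46 in G2KO-labelled RNA, or 4.73-fold lower, and of -0.04 and -0.12 in G1KO. Igfbp7 (chromosome 5, 78424105 to 78424164) had log2 ratios of -3.07 and -3.24 in G2KO-labelled RNA, or 8.92-fold lower, and of 0.31 on each array in G1KO. Its raw brightness in Cy5 was 14679 in G2KO-labelled RNA against 95958 in WT. Even the lowest culture was therefore bright for this transcript.

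**Figure D2:**
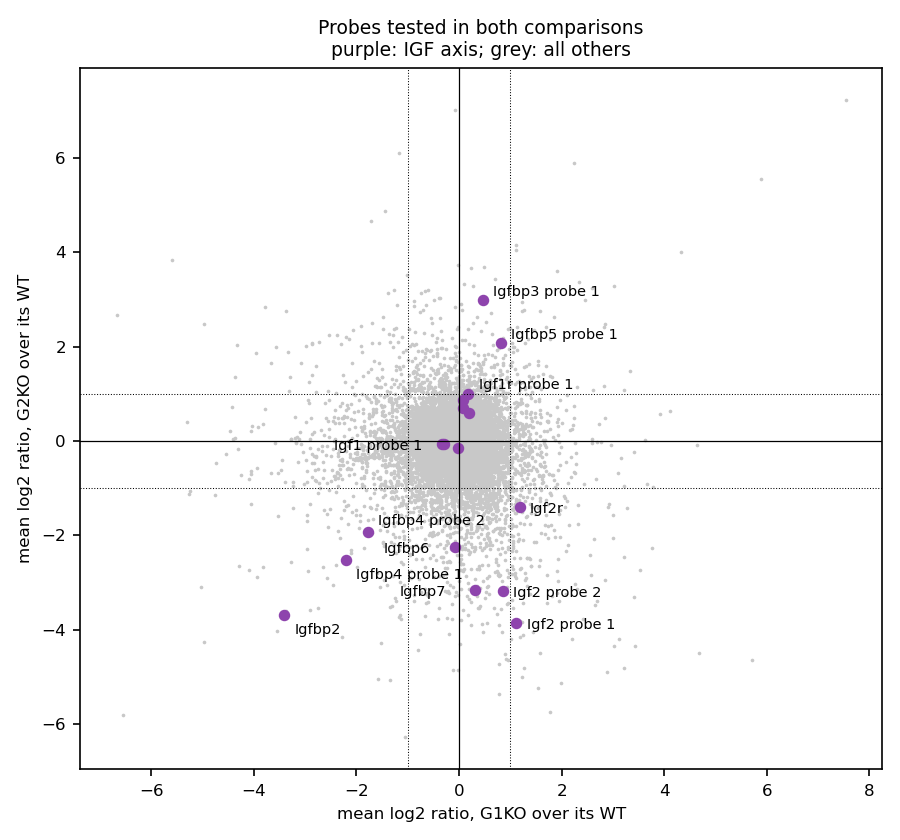
Mean log2 ratio of knockout over WT in the G1KO pair (x axis) and in the G2KO pair (y axis) for the probes tested in both, with IGF axis probes in purple and all others in grey. Dotted lines mark 2-fold. Igfbp2 and Igfbp4 lie at the lower left, Igf2 and Igf2r at the lower right, and Igfbp3 and Igfbp5 at the top.

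The WT cultures were not alike in the IGF axis. Levels were set side by side as log2 brightness after normalisation between arrays, each dye against the same dye. This comparison is indirect, since the RNAs were not on the same array. Of 17 member probes tested, 5 differed by 2-fold in both dyes between the WT of the G2KO pair and the WT of the G1KO pair, beside 11.0% of 26034 probes across the array. The probes were both of Igf2, with differences of 2.60 ± 0.09 and 2.33 ± 0.08 (SD between dyes), and those of Igf2r (1.83 ± 0.01), Igfbp2 (1.35 ± 0.07) and Igfbp5. All were higher in the WT of the G2KO pair. For Igfbp5 the WT of the G1KO pair was not well above background, and the other WT was at least 5.06-fold higher, with a measured log2 difference of 2.34 ± 0.29. For Igf2r the difference between the WT cultures was larger than either ratio of knockout over WT. For Igfbp5 it also exceeded both, although the ratio in G2KO-labelled RNA (2.08 ± 0.21) was smaller by less than the spread between dyes. Between G2KO-labelled RNA and G1KO, 8 of 20 member probes differed by 2-fold in both dyes, beside 8.67% of 25530 probes. Those higher in G2KO-labelled RNA were Igfbp5 by 3.60 ± 0.09 and Igfbp3 by 3.37 ± 0.04 at its brightest probe. At the second probe of Igfbp3 G1KO was not well above background, and G2KO-labelled RNA was at least 2.59-fold higher. Those lower had differences of -2.69 ± 0.31 for Igfbp6, -2.44 ± 0.44 for Igfbp7, -2.37 ± 0.35 and -1.70 ± 0.20 for Igf2, and -1.29 ± 0.09 for the brighter probe of Igfbp4.

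The order of the 4 cultures differed between members. For Igf2 the mean log2 levels were 12.8 in the WT of the G2KO pair, 11.3 in G1KO, 10.2 in the WT of the G1KO pair and 8.94 in G2KO-labelled RNA, so that the WT cultures lay on either side of G1KO. For Igf2r they were 13.6, 12.9, 12.2 and 11.7 in the WT of the G2KO pair, G1KO, G2KO-labelled RNA and the WT of the G1KO pair. G2KO-labelled RNA was thus lower than its own WT and still above the other WT, by 0.43. For Igfbp2 they were 14.0 and 12.6 in the WT of the G2KO and G1KO pairs, against 10.3 in G2KO-labelled RNA and 9.24 in G1KO. Each knockout was below each WT, and the smallest such difference was -2.35, between G2KO-labelled RNA and the WT of the G1KO pair. Igfbp4 likewise had each knockout below each WT at its brighter probe, with 10.9 and 9.96 in the WT of the G1KO and G2KO pairs, 8.72 in G1KO and 7.43 in G2KO-labelled RNA. Igfbp6 lay at 12.3, 12.2 and 11.8 in the WT of the G1KO pair, G1KO and the WT of the G2KO pair, and at 9.54 in G2KO-labelled RNA. Its ratio of G1KO over WT, -0.08 ± 0.05, was close to the spread between arrays, and these neighbours in the order were not set apart. Igfbp7 lay at 16.08 in the WT of the G2KO pair, 15.36 in G1KO, 15.05 in the WT of the G1KO pair and 12.92 in G2KO-labelled RNA.

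G2KO-labelled RNA was the highest of the cultures for Igfbp3, Igfbp5 and Igf1r. At the brightest probe of Igfbp3 the mean log2 levels were 10.87 in G2KO-labelled RNA, 7.88 in its WT, 7.50 in G1KO and 7.04 in the WT of the G1KO pair. At that of Igfbp5 they were 10.49, 8.41, 6.89 and 6.07 in the same order, the last not well above background. Igf1r had a mean log2 level of 13.04 in G2KO-labelled RNA at its brightest probe, against 12.39 in G1KO and 12.20 and 12.03 in the WT of the G1KO and G2KO pairs. At each of its 3 dimmer probes the log2 levels of the WT cultures differed by 0.01, less than the SD between dyes of that difference (0.02 to 0.17). Igf1 spanned less than the brightest probes of these 3 genes at the probe printed 10 times, with mean log2 levels of 10.32 in the WT of the G1KO pair, 9.99 in G1KO, 9.68 in the WT of the G2KO pair and 9.63 in G2KO-labelled RNA.

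**Figure D3:**
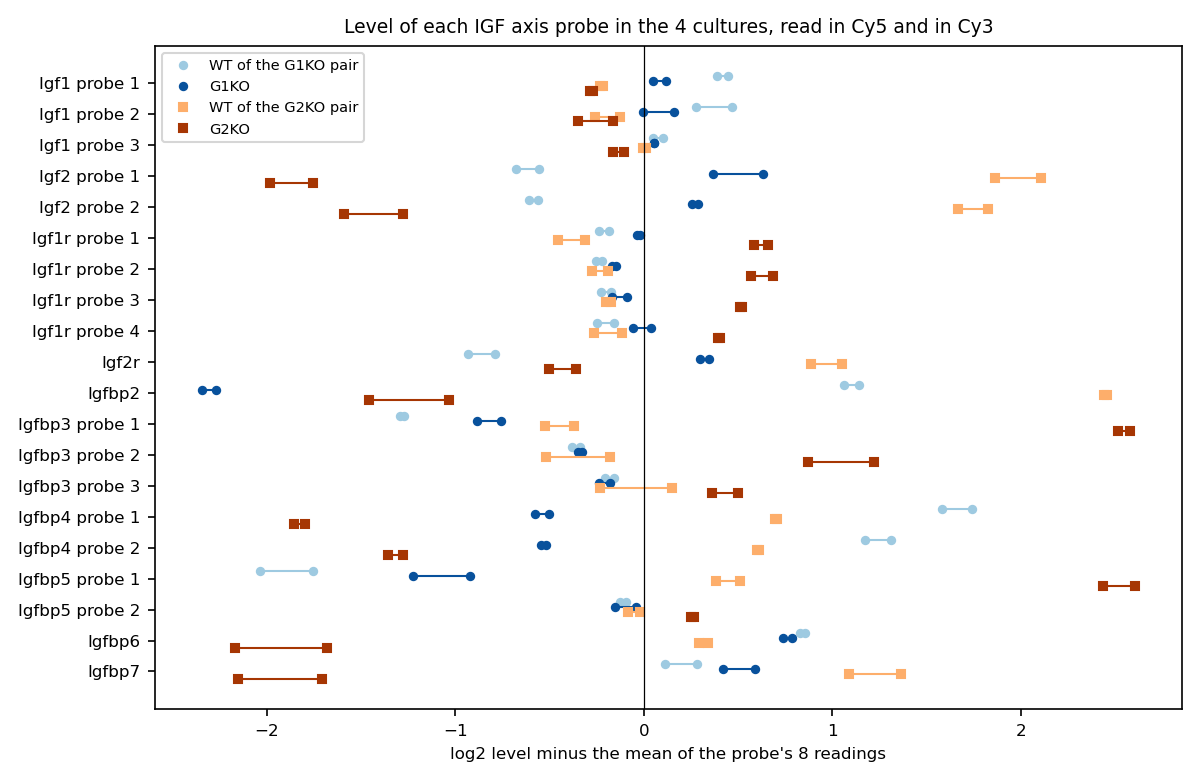
Log2 level of each IGF axis probe in the WT and knockout RNA of both pairs, as the difference from the mean of the probe's 8 readings. Each culture has 2 points, its readings in Cy5 and Cy3, joined by a line. Igfbp2 and Igfbp4 show both WT cultures to the right of both knockouts, whereas Igf2 and Igf2r show the WT cultures at opposite sides.

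Cell type markers also differed within the pairs, each read by its brightest tested probe. In the G1KO pair all 7 mesothelial markers were tested and all were called, 6 lower by log2 ratios from -2.79 (Msln) to -5.92 (Lrrn4), and Krt19 higher at 2.90. The second probe of Muc16 gave -0.34 there, beside -4.46 at its brightest. The median log2 level of these 7 markers was 10.4 in G1KO and 13.9 in its WT. In the other pair only Msln (1.60 ± 0.20) and Krt19 (-1.40 ± 0.16) of these 7 were tested. Of 10 fibroblast markers, all tested in both pairs, 2 were higher and 1 was lower in G1KO. The lower one was Dcn, at -4.05 ± 0.12, and its second probe gave -0.89. In G2KO-labelled RNA 0 of the 10 fibroblast markers were higher and 6 were lower, including Pdgfra (-4.63 ± 0.09), Thy1 (-3.22 ± 0.18) and Col3a1 (-2.90 ± 0.14). Other probes there gave smaller ratios for Pdgfra (-0.59) and Col3a1 (-1.25 and -0.27), and -3.28 for Thy1. The median log2 level of this list was 12.3 in G2KO-labelled RNA and 14.9 in its WT. Of 7 neural and glial markers, Nes was higher in both, at 2.34 ± 0.17 in G1KO and 3.37 ± 0.23 in G2KO-labelled RNA. Sox2 was higher in G2KO-labelled RNA (5.59 ± 0.35) and not tested in the G1KO pair, and the other tested members, 4 in each pair, were not called. Of 3 cartilage markers, Sox9 was higher in G1KO (1.32 ± 0.19), whereas Col2a1 (-0.89 ± 0.01) and Acan (0.04 ± 0.12) were not called. In G2KO-labelled RNA Sox9 (-3.08 ± 0.12) and Col2a1 (-1.50 ± 0.02) were lower at their brightest probes, and Acan (-0.13 ± 0.01) was not called. The second tested probe of Col2a1 went the other way there, at 0.63. Those of Sox9 gave -0.50 and -2.71. In G1KO the epithelial markers Krt14 (-2.09 ± 0.08) and Krt8 (-1.14 ± 0.03) were lower, 2 of 4 tested, and the endothelial marker Emcn (-2.65 ± 0.08) was lower, 1 of 2 tested. The smooth muscle markers Cnn1 (1.57) and Myh11 (1.03) were higher there, 2 of 4 tested. In G2KO-labelled RNA 0 of the 2 epithelial, 1 endothelial and 4 smooth muscle markers tested were called. No macrophage or skeletal muscle marker was called in either pair. Pecam1, Cdh5 and Tek of endothelium, Ptprc, Adgre1 and Itgam of macrophages and Epcam of epithelium were tested in neither pair, since neither genotype passed the background filter. Fewer cells of a type and less RNA per cell cannot be told apart in these bulk RNAs, and the part of these markers in the IGF axis ratios was not tested.

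Most other genes of the pathway were not called. Of 54 listed genes 53 were on the array. In G1KO 46 were tested, of which 3 were higher, 3 lower and 40 not called (13.0% called beside 5.79% of all tested probes), with a median log2 ratio of 0.08 against -0.00225 over all tested probes. In G2KO-labelled RNA 47 were tested, of which 1 was higher, 6 were lower and 40 were not called (14.9% beside 6.37%), with a median of -0.09 against -0.00724. Each gene was read by its brightest tested probe. These calls depend on the loess step. With median centring in its place, Adam9, Pik3cb and Foxo1 lost their call in G1KO. In G2KO-labelled RNA Irs1, Grb10, Grb14, Foxo1, Ghr and H19 lost theirs, which left Socs2 as the 1 gene of the list called in that pair. Each had the same direction on both arrays and missed the threshold on one of them.

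Upstream of the ligands, Ghr, the growth hormone receptor, was not called in G1KO at 0.91 ± 0.02 and was called lower in G2KO-labelled RNA at -1.09 ± 0.02. Of its 5 probes, 2 were called in G2KO-labelled RNA. Socs2, an inhibitor of growth hormone signalling, had 0.28 ± 0.14 in G1KO and -1.58 ± 0.06 in G2KO-labelled RNA, and was called in the second alone. The other Socs2 probe gave -0.98 in G2KO-labelled RNA and was not called. H19, the maternally expressed non-coding neighbour of Igf2 on chromosome 7, had 1.69 ± 0.15 in G1KO and -1.57 ± 0.13 in G2KO-labelled RNA, both called. Its directions were those of Igf2 in each pair. Igf2bp3, whose product binds Igf2 mRNA, was higher in G1KO at 1.72 ± 0.01, and was not called in G2KO-labelled RNA at 0.21 ± 0.05. Igf2bp1 and Igf2bp2 were not called in either pair.

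Among proteases of the binding proteins, Htra1 (-2.41 ± 0.06) and Adam9 (-1.20 ± 0.02) were lower in G1KO, and 0 of 9 tested members of the group were called in G2KO-labelled RNA. Pappa, the protease of IGFBP4, was not called in either, at 0.70 ± 0.03 and -0.45 ± 0.18. Of the adaptors that join the receptor to its downstream kinases, 0 of 7 tested were called in G1KO. In G2KO-labelled RNA, Irs1, the main docking protein of IGF1R, was lower at -1.96 ± 0.28, although its second probe, at -1.12, was not called. Grb10, an imprinted inhibitor of the receptor, was lower there at -1.93 ± 0.03. Grb14, a relative of Grb10, was higher at 1.18 ± 0.07. In the PI3K-AKT arm 12 of 14 genes in G1KO and 13 of 14 in G2KO-labelled RNA were not called. Foxo1, a transcription factor restrained by AKT, was called higher in G1KO, at 1.08 and 1.11 on the arrays, and called lower in G2KO-labelled RNA, at -1.58 and -1.48. The second Foxo1 probe, at 0.94 in G1KO, was not called there. Pik3cb was lower in G1KO (-1.14 ± 0.09), although its second probe gave -0.21. All 5 tested genes of the MAPK arm were not called in either pair. Ins1, Ins2, Igfbp1, Igfbpl1 and Igfals were tested in neither pair, since neither genotype passed the background filter.

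**Figure D4:**
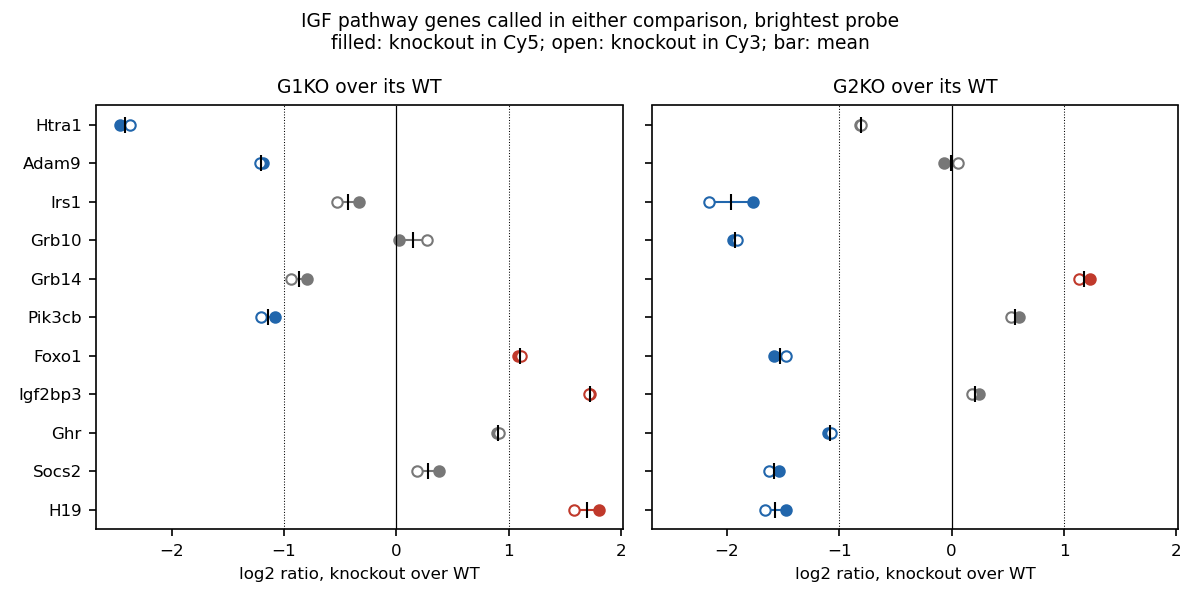
Log2 ratio of knockout over WT for the 11 genes of the IGF pathway list called in either pair, at the brightest probe of each. Filled points are the array with knockout RNA in Cy5, open points the array with it in Cy3, bars their mean, dotted lines the 2-fold threshold, and red and blue genes called higher and lower. Foxo1 and H19 are called in both panels, higher on the left and lower on the right.

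Genes whose pair of ratios was nearest to that of a member were sought among 22250 probes well above background in all cultures. The measure was the distance between the pairs of mean log2 ratios, over 2 comparisons. Nearest to Igfbp2 was Flrt3, a membrane protein with leucine-rich repeats, at -3.37 ± 0.22 and -3.60 ± 0.12 (distance 0.10). It was followed by the growth factor Fgf5 (0.35), the transcription factor Maf (0.51), Vat1l (0.68) and the dynein chain Dync1i1 (1.11). Nearest to the brighter probe of Igf2 was Gas6, a ligand of the TAM receptors, at 1.18 ± 0.20 and -3.82 ± 0.11 (distance 0.08). It was followed by Srpx2 (0.12), the secreted growth factor Ptn (0.29), the matrix protein Omd (0.30) and the collagen Col11a1 (0.33).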

How the data were processed

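RNA of MEFs was measured on 4 two-colour Agilent arrays of 45018 spots, on 1 slide and in 1 scan, as 2 dye-swapped pairs. The authors quantified spots with Agilent Feature Extraction (file headers give version 10.5.1.1, the submitters' processing notes 9.1). The deposited intensity values are the mean brightness of a spot and the median brightness around it, per channel, without background subtraction or normalisation. The deposited files also hold the scanner's log10 ratio, and the authors' series table holds that log10 ratio turned to knockout over WT (r = 0.999999 and -0.999999 with the scanner's, column medians 0), so its direction is settled. The deposited flags mark dim, saturated and outlying spots.

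Background was corrected by normexp with an offset of 50, and control and outlier spots (114 to 203 per array) were left out. Loess was run within each array (limma 3.58.1, R 4.3.3). Spots of a probe were averaged, and the mean of both arrays was taken as the log2 ratio of knockout over WT. Levels were taken after Aquantile normalisation, by dye. An "at least" fold sets the bright genotype's mean against the dim genotype's mean, with each array's dim signal raised to the lowest signal well above background. The number of arrays limits the precision. Background correction, loess and calling were run on simulated arrays, with changes planted above the calling threshold and outside the dim probes. That run does not cover dim probes or ratios near the threshold. Probes were named by accession (24375), symbol (6301), older symbol (2426) or as in the file (8072), from RefSeq for GRCm38.p6. All promoter stretches come from the RefSeq table of that build, which held all 10 genes. Probe positions are on build mm8, and exon or untranslated region was not analysed here.

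The members, the pathway list and the marker lists were chosen with earlier results of these data known. All 10 members were named at every probe, as were all called genes of the pathway list, the 5 genes nearest to Igfbp2 and to the member probe with the largest called ratio in each comparison (Igfbp2 in G1KO, Igf2 in G2KO-labelled RNA), and the control genes Ccng1, Ccng2, Xist, Eif2s3y and Ddx3y. Ddx3y had log2 ratios of -4.97 ± 0.24 and -4.26 ± 0.23. Alternatives covered the background correction, normalisation, single arrays, the filter on dim probes, the threshold and the probe of a gene. Genes of the pathway list that are named but were not called were named after their values were seen.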

Additional observations from a re-analysis of the deposited data

Results flagged for a closer look

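Igf2, Igf2r and Igfbp7 lay on opposite sides of 0 in the pairs on every array, higher in G1KO and lower in G2KO-labelled RNA than in WT. The log2 ratio in G2KO-labelled RNA minus that in G1KO was -4.97 and -4.04 at the brighter and dimmer probe of Igf2, -2.58 for Igf2r and -3.47 for Igfbp7. With 1 culture per genotype, these differences were not tested. For Igfbp7 the ratio in G1KO was small (0.31 on each array) and was not called. Neither probe of Igf2 was called in G1KO. The WT cultures also differed, with the WT of the G2KO pair higher by 2.60 and 2.33 for Igf2. For Igf2r it was higher by 1.83 and for Igfbp7 by 1.03.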

How the results depend on the processing

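No paired analysis was possible because each comparison has 1 replicate per genotype. In the G1KO pair the number of member probes called higher, 1 in the report, was 2 without background subtraction, with plain subtraction, with a normexp offset of 16 and on the array with knockout RNA in Cy3 alone, 0 with median centring, 3 with the scanner's log ratio and with the series table, 4 at a 1.5-fold threshold and 0 at 4-fold. The number called lower stayed within 1.5 times in both pairs. In the G2KO pair the number called higher, 3 in the report, was 5 with the scanner's log ratio and with the series table, 6 at 1.5-fold and 1 at 4-fold. Of the pathway list in G1KO, 3 genes higher became 6 with plain subtraction, with the scanner's log ratio and with the series table, 7 at 1.5-fold and 0 at 4-fold, and 3 lower became 1 with median centring, 5 at 1.5-fold and 1 at 4-fold. In G2KO-labelled RNA, 1 gene higher became 0 with median centring, 2 with the scanner's log ratio and with the series table and 0 at 4-fold, and 6 lower became 1 with median centring, 11 at 1.5-fold and 0 at 4-fold. Across the array the count called in G1KO rose from 1479 to 2854 with the scanner's log ratio and fell to 813 with median centring, and in G2KO-labelled RNA from 1619 to 3396 and 955. The cause was not tested. The called member that lost its call at 2-fold was Igf2r, with median centring, and 1 Igfbp3 probe was no longer tested where both genotypes had to be above background. Ratios of called member probes kept their direction under every alternative run, and those of Igfbp2 ranged from -3.52 to -3.33 and from -3.90 to -3.49. Signs turned for Igf1 alone, whose ratios lay near 0. Dim probes limit the readings of Igfbp3 and Igfbp5 in the G1KO pair.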
